A study of Sus scrofa with 24 samples.

Results

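Expression of THEM5, MAPK4 and GLYATL2 was examined in liver of 24 pigs, 1 RNAseq library per pig. These 3 genes, of 13463 in the count table, had been picked on these same libraries. All of them were near 0 in control castrated boars and control sows and present after Sustanon, and THEM5 and MAPK4 were also high in control uncastrated boars. The levels in control and Sustanon-treated pigs are therefore given below as a description. Values of the 3 genes are read as a test only among pigs given Myodin, whose levels are not part of that pattern. All 3 genes are also in the marker panel of the paper, drawn from genes that differed with Sustanon or Myodin. The choice was thus not fully blind to Myodin. The edgeR fit across all genes covers the other comparisons as well. All 3 genes passed the filter on low counts, which kept 8754 genes; GLYATL2 and the others could pass through the classes in which they are high.

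Sustanon, which contains esters of testosterone, was given by intramuscular injection at 4 mg/kg to 3 castrated boars, 3 sows and 2 uncastrated boars. Myodin, which contains a nandrolone ester, was given in the same way at 5 mg/kg to 2 castrated boars, 3 sows and 3 uncastrated boars. Nandrolone is testosterone without the methyl group between the A and B rings. Injections at these doses were 5 in number, began on day 94 of the experimental phase and were 4 days apart. Slaughter was 4 days after the last. The paper also describes an earlier preclinical phase, in which the testosterone and nandrolone groups received a single injection. Sustanon was then given at 4 mg/kg and Myodin at 2 mg/kg. The 8 control pigs, 3 castrated boars, 3 sows and 2 uncastrated boars, shared the crossbred Large White, Landrace and Duroc background but were kept in a separate room, so that room and treatment cannot be told apart. The sows were young females raised with the other pigs. For each treatment, castrated boars and sows were pooled as pigs without testes, and numbers after a group are animal numbers.

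THEM5 encodes an acyl-CoA thioesterase of mitochondria, an enzyme that frees fatty acids from coenzyme A and takes part in remodelling of cardiolipin, the signature lipid of the inner mitochondrial membrane. MAPK4 encodes ERK4, an atypical MAP kinase whose close relative is MAPK6 and which binds the kinase MAPKAPK5. GLYATL2 encodes a relative of glycine N-acyltransferase and joins long-chain acyl groups from acyl-CoA to glycine. THEM5 and GLYATL2 thus both use acyl-CoA, which is abundant in liver, where fatty acids are oxidised and many acids are conjugated before excretion. Androgens act through the androgen receptor, a transcription factor, and pig testes are known for a high output of steroids.

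The genes lie on 3 chromosomes of Sscrofa11.1, by RefSeq. THEM5 (ENSSSCG00000006614) spans chr4:97319579-97358602, MAPK4 (ENSSSCG00000004520) spans chr1:100107429-100291594 and GLYATL2 (ENSSSCG00000013148) spans chr2:12280093-12337509. The study designed PCR primers for each of them, and these oligonucleotides are shown 5′ to 3′ because they mark the transcripts that were followed as candidate markers. For THEM5 the same oligonucleotide is listed as forward and as reverse primer, so that its partner is not known here.
THEM5 forward and reverse, as listed: ccatcctggtgccctcaac
MAPK4 forward: accttggtgggcgtttca
MAPK4 reverse: agcccattgacgccaaag
GLYATL2 forward: ggcatgcccccaggtta
GLYATL2 reverse: ctcttggcaaccttggatctg

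Libraries held 9267780 to 14017276 counted reads, with a median of 10260005. Of 8 hepatocyte markers 7 were in the table and together took 115147 to 251349 CPM (counts relative to a library's total, scaled between libraries by TMM), while 5 kidney markers summed to 0 to 1.69 CPM, 2 adrenal markers to 0 to 1.67 CPM and 2 skeletal muscle markers to 0.201 to 2.75 CPM. The Y-linked genes KDM5D and EIF1AY went against the label in 3 control libraries. The library labelled control castrated boar 15 had 0 and 1 reads of these genes, the library labelled control sow 16 had 35 and 476, and the library labelled control sow 18 had 95 and 434. All 3 belong to the pooled class of control pigs without testes, and the log2 fold changes of the 3 genes against that class are given with and without them; class means and pooled ratios include them. In addition, the column of Sustanon sow 6 carries the covariate code of the Sustanon castrated boars, which falls in the same pooled class as its label. The tissue is bulk liver, so that fewer cells of a type and less RNA per cell cannot be told apart.

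THEM5, the thioesterase, was nearly absent from control pigs without testes. Counts were 0, 2 and 2 in control castrated boars 13, 14 and 15, and 0, 4 and 0 in control sows 16, 17 and 18. A count of 0 allowed up to 0.301, 0.303 and 0.278 CPM in the libraries of pigs 13, 16 and 18. Control uncastrated boars 25 and 27 had 279 and 180 reads, the 2 highest levels of all pigs once scaled to depth, at 24.7 and 18.1 CPM. With Sustanon, THEM5 counts were 213, 71 and 74 in castrated boars 1, 2 and 3, 33, 94 and 166 in sows 4, 5 and 6, and 158 and 161 in uncastrated boars 19 and 20. Every Sustanon library was above every control library of castrated boars and sows, and both Sustanon uncastrated boars, at 13.5 and 15.2 CPM, lay inside the range of 3.54 to 17.8 CPM of the Sustanon pigs without testes. With Myodin, counts were 7 and 67 in castrated boars 8 and 9, 22, 31 and 17 in sows 10, 11 and 12, and 31, 56 and 28 in uncastrated boars 22, 23 and 24. These intermediate levels were also above all controls without testes, and the Myodin uncastrated boars, at 2.38 to 5.28 CPM, overlapped the Myodin pigs without testes, at 0.623 to 4.75 CPM.

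MAPK4, the atypical kinase, had the same order of class means. Counts were 2, 1 and 2 in control castrated boars 13, 14 and 15, 4, 3 and 2 in control sows 16, 17 and 18, and 135 and 70 in control uncastrated boars 25 and 27. Sustanon-treated castrated boars 1, 2 and 3 had 120, 94 and 42 reads, sows 4, 5 and 6 had 39, 36 and 45, and uncastrated boars 19 and 20 had 84 and 115. All Sustanon libraries were above all controls without testes, and the 3 sows, at 3.44 to 4.19 CPM, were closer to each other than the 3 castrated boars, at 3.70 to 10.2 CPM. Myodin-treated castrated boars 8 and 9 had 22 reads each, sows 10, 11 and 12 had 15, 17 and 18, and uncastrated boars 22, 23 and 24 had 18, 53 and 11. The 5 Myodin pigs without testes spread little, from 1.52 to 1.96 CPM, and of the 3 Myodin uncastrated boars 1 was above and 2 were below all of them.

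GLYATL2, the glycine acyltransferase relative, was low in controls of every kind. Counts were 3, 2 and 3 in control castrated boars 13, 14 and 15, 3, 3 and 2 in control sows 16, 17 and 18, and 15 and 11 in control uncastrated boars 25 and 27. Control uncastrated boars were above the other controls but reached only 1.11 to 1.33 CPM. With Sustanon, counts were 21, 127 and 17 in castrated boars 1, 2 and 3, 49, 65 and 50 in sows 4, 5 and 6, and 85 and 39 in uncastrated boars 19 and 20. All 8 Sustanon libraries were above both control uncastrated boars, and castrated boar 2, at 13.7 CPM, was far above castrated boars 1 and 3, at 1.75 and 1.5 CPM. With Myodin, counts were 8 and 8 in castrated boars 8 and 9, 6, 6 and 0 in sows 10, 11 and 12, and 10, 61 and 28 in uncastrated boars 22, 23 and 24. All 3 Myodin uncastrated boars were above all 5 Myodin pigs without testes, and the count of 0 in sow 12 allowed up to 0.253 CPM.

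**Figure D1:**
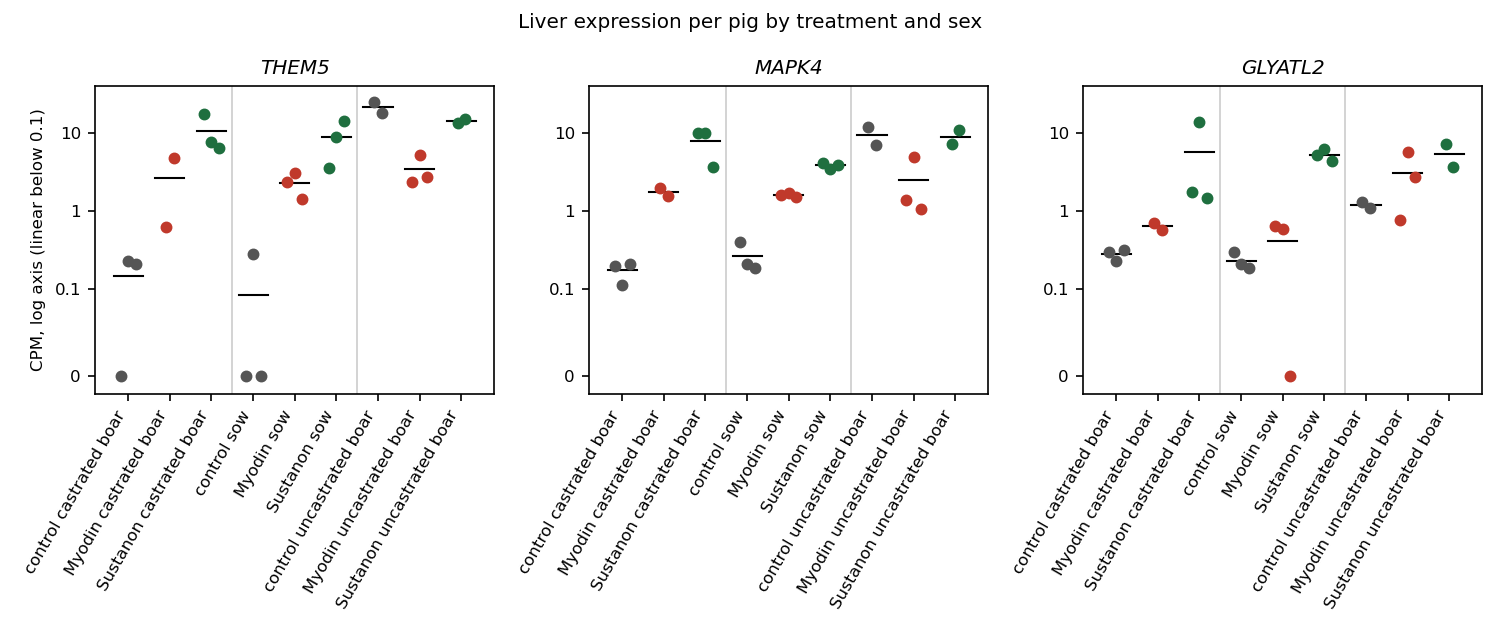
Level of THEM5, MAPK4 and GLYATL2 in each of 24 pigs (points, CPM after TMM scaling, on an axis that is logarithmic above 0.1 and linear below) in the 9 groups of treatment and sex, with a line at the mean of each group; grey is control, red Myodin and green Sustanon. Control castrated boars and sows lie at or below 0.404 CPM for all 3 genes, control uncastrated boars are high for THEM5 and MAPK4 but not for GLYATL2, and 1 Myodin sow has no GLYATL2 read.

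In the order of class means, THEM5 was highest in control uncastrated boars, at 21.4 ± 4.64 CPM (SD, n = 2). Sustanon uncastrated boars followed with 14.3 ± 1.17 CPM (n = 2) and Sustanon pigs without testes with 9.82 ± 5.29 CPM (n = 6), and these neighbours overlapped. Myodin uncastrated boars had 3.46 ± 1.58 CPM (n = 3), Myodin pigs without testes 2.45 ± 1.59 CPM (n = 5) and control pigs without testes 0.120 ± 0.134 CPM (n = 6). The first 2 classes did not overlap, nor did the last 2, whereas Sustanon pigs without testes overlapped Myodin uncastrated boars.

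The order for MAPK4 was the same. Control uncastrated boars had 9.49 ± 3.46 CPM and Sustanon uncastrated boars 9.01 ± 2.58 CPM (SD, n = 2 each), which differed by less than the spread within either class. Sustanon pigs without testes had 5.90 ± 3.25 CPM (n = 6), Myodin uncastrated boars 2.48 ± 2.18 CPM (n = 3), Myodin pigs without testes 1.67 ± 0.173 CPM (n = 5) and control pigs without testes 0.221 ± 0.0966 CPM (n = 6). Only the last class stood clear of its neighbour in this order.

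For GLYATL2 the order differed, since Sustanon came first whether or not testes were present. Sustanon uncastrated boars (n = 2) and Sustanon pigs without testes (n = 6) both had 5.47 CPM, with SDs of 2.54 and 4.46. Myodin uncastrated boars had 3.08 ± 2.51 CPM (n = 3) and control uncastrated boars 1.22 ± 0.155 CPM (n = 2), and these overlapped. The next step down was without overlap: Myodin pigs without testes had 0.504 ± 0.287 CPM (n = 5) and control pigs without testes 0.258 ± 0.0564 CPM (n = 6), which also overlapped through Myodin sow 12. Since CPM does not allow for transcript length, levels of different genes were set side by side in TPM, in which counts are also divided by transcript length. In Sustanon pigs without testes, mean TPM was 22.4 for THEM5, 6.37 for GLYATL2 and 1.98 for MAPK4.

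The comparison whose levels are not part of the pattern of choice asked whether uncastrated boars differed from castrated boars and sows when all received Myodin. GLYATL2 was tested in it because the classes in which it is high carried it past the count filter; with the 2 Myodin classes alone it did not pass, and edgeR called 0 genes, with 1145 at an unadjusted p under 0.05. In the fit of all classes GLYATL2 was higher in the uncastrated boars, by 2.59 ± 0.68 on the log2 scale (SE; 95% interval 1.18 to 4.00; 3 of 3 boars above all 5 other pigs), with an adjusted p of 0.0475 by edgeR's quasi-likelihood test with Benjamini-Hochberg adjustment over 8754 genes. THEM5 differed by 0.48 ± 0.52 (interval -0.60 to 1.55; adjusted p = 0.644 by edgeR) and MAPK4 by 0.56 ± 0.45 (interval -0.36 to 1.49; adjusted p = 0.509 by edgeR). Neither gene passed the test, and both intervals allow more than a doubling in uncastrated boars. For GLYATL2 the edgeR adjusted p is given as a description, since the gene entered the test through classes in which it is high. A gene was called where its adjusted p was under 0.05 and its log2 fold change at least 1 in size; 110 genes, or 1.26% of those tested, were called in this comparison, 80 higher (0.914%) and 30 lower in uncastrated boars. CPM was higher without overlap for 3.8% of tested genes. The count of 110 called genes became 1 without boar 23 and 434 without boar 22.

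The call for GLYATL2 was narrow. Its adjusted p was just under the threshold. A two-sided exact permutation test of mean log2 CPM gave a difference of 2.08 with p = 0.0179, the smallest that 56 arrangements allow; adjusted over the 3 genes it was 0.0536, which a single gene could not go below in this design. The same exact test gave 0.63 for THEM5 (p = 0.429) and 0.23 for MAPK4 (p = 0.786). Without uncastrated boar 23, which had the most GLYATL2 reads of the Myodin pigs, the edgeR value for GLYATL2 was 1.76 with an adjusted p of 0.304. THEM5 then had 0.04 and MAPK4 turned to -0.43. The GLYATL2 call was kept in 4 of 24 fits that left out 1 pig each. It was lost with no count filter, with 9 separate groups, by limma and without the 3 doubtful control libraries (adjusted p of 0.0515 to 0.0864). Red blood cell markers moved with this comparison: all 4 markers in the table of 5 listed were lower in Myodin uncastrated boars, none called. Their summed level was 170 to 939 CPM against 538 to 2355 CPM, and none was at 0 in all libraries. The 2 bile duct markers in the table were also lower, none called, at a median log2 fold change of -0.19. The part of these markers in the result was not tested.

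In pigs without testes, Sustanon and control were far apart for all 3 genes, as the choice required. The log2 fold change was 6.17 ± 0.60 for THEM5, 4.66 ± 0.46 for MAPK4 and 4.35 ± 0.63 for GLYATL2 (SE by edgeR, 6 Sustanon and 6 control pigs). Beside these values, 2.02% of all tested genes were called in this comparison, 1.36% as higher, and 2% were higher without overlap. Control levels rested on few reads, 8 in all for THEM5, 14 for MAPK4 and 16 for GLYATL2 over 6 libraries, so that the ratio of pooled CPM is loosely bounded. It was 80.4 for THEM5 (exact 95% interval 40.6 to 187), 26.5 for MAPK4 (15.6 to 49.0) and 20.3 for GLYATL2 (12.3 to 36.0), and these intervals cover counting error only. Without the 3 control libraries that go against their labels, the log2 fold changes were 5.69, 4.94 and 4.41. Some markers of other cells differed in this comparison too, none called. All 4 red blood cell markers in the table were lower with Sustanon, with a summed level of 462 to 1899 CPM against 880 to 2432 CPM in controls. All 4 leukocyte markers in the table of 8 listed had log2 fold changes below 0, from -0.86 to -0.01. Their summed level hardly differed, with medians of 235 CPM (206 to 259) and 236 CPM (168 to 332). The 2 bile duct markers in the table were lower, at a median log2 fold change of -0.19. Their part in this comparison, for the 3 genes and for the list genes described below, was not tested. The gap between the highest level in control pigs without testes and the lowest level with Sustanon was 0.281 to 3.54 CPM for THEM5, 0.404 to 3.44 CPM for MAPK4 and 0.318 to 1.5 CPM for GLYATL2.

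Among control pigs, THEM5 and MAPK4 differed far more than GLYATL2 between boars with testes and the other pigs. Control uncastrated boars exceeded control pigs without testes by 7.29 ± 0.66 for THEM5 and 5.35 ± 0.52 for MAPK4 on the log2 scale, a pattern the choice had used. GLYATL2 differed by 2.21 ± 0.86, with both boars above all 6 other controls. In this comparison 0.822% of tested genes were called, 0.423% as higher, and 9.65% were higher without overlap, from only 2 boars. Without the 3 doubtful control libraries the values were 6.81, 5.63 and 2.27.

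Myodin in pigs without testes went with intermediate levels of THEM5 and MAPK4. The log2 fold change against control was 4.18 ± 0.67 for THEM5, 2.85 ± 0.50 for MAPK4 and 0.94 ± 0.77 for GLYATL2. At the lowest, alternatives other than leaving out 1 pig gave 2.19, 0.53 and 0.20 in the same order, by limma on log2(TPM + 1). The added 1 shrinks differences between low levels on that scale. There MAPK4 fell under the fold threshold of 1, while its mean TPM was 0.554 with Myodin and 0.0767 in controls. All 5 Myodin pigs were above all 6 controls for THEM5 and MAPK4, and 4 of 5 for GLYATL2, Myodin sow 12 being below them. Only 3 genes, or 0.0343% of those tested, were called in this comparison, MAPK4, THEM5 and PTPMT1, and 0.937% were higher without overlap. Nothing is read from the presence of THEM5 and MAPK4 among them, because low control levels had been required of both. Without the 3 doubtful control libraries edgeR called 0 genes at an adjusted p under 0.05, with 500 at an unadjusted p under 0.05, and the log2 fold changes were 3.70 for THEM5, 3.13 for MAPK4 and 1.0 for GLYATL2. Ratios of pooled CPM were 20.1 for THEM5 (exact 95% interval 9.93 to 47.4), 7.50 for MAPK4 (4.25 to 14.2) and 1.95 for GLYATL2 (1.02 to 3.87). The 4 red blood cell markers and 2 bile duct markers in the table were all lower with Myodin, none called. Their median log2 fold changes were -0.34 and -0.49, and their part was not tested.

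The 2 steroid preparations were given at different doses, so their levels are set side by side only. In pigs without testes the Sustanon level lay above the Myodin level by 1.99 ± 0.43 for THEM5, 1.82 ± 0.37 for MAPK4 and 3.41 ± 0.61 for GLYATL2 on the log2 scale. All 6 Sustanon pigs were above all 5 Myodin pigs for MAPK4 and GLYATL2, and 5 of 6 for THEM5. Among all tested genes 1.04% were called in this comparison, 0.685% as higher with Sustanon, and 1.21% were higher without overlap. All 4 red blood cell and all 4 leukocyte markers in the table were lower with Sustanon, with median log2 fold changes of -0.37 and -0.28. The 2 bile duct markers in the table were higher, at a median of 0.30. None of these markers was called, and their part was not tested.

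In uncastrated boars the estimates against control boars were below 0 for THEM5 and MAPK4 and above 0 for GLYATL2 with either injection. With Sustanon the intervals of THEM5 (-1.90 to 0.75) and MAPK4 (-1.21 to 1.05) included 0. With Myodin that of GLYATL2 (-0.41 to 3.05) did. The direction is not settled in these cases, and the sign for MAPK4 with Sustanon changed with the control boar left out. The intervals of the other estimates did not include 0, but edgeR called none of them. Myodin-treated boars had lower THEM5 and MAPK4 values than control boars, with log2 fold changes of -2.63 ± 0.60 and -1.94 ± 0.51, and all 3 were below both controls for each gene. Among all tested genes 9.76% were lower without overlap in these 3 against 2 pigs, and edgeR called 0 genes, with 797 at an unadjusted p under 0.05, where DESeq2 called 38 and limma 3. GLYATL2 differed by 1.32 ± 0.83, with 2 of 3 Myodin boars above both controls and 1 below. Its value fell to 0.47 without Myodin uncastrated boar 23. Over alternatives other than leaving out 1 pig the lowest value was 0.56, by limma on the compressed log2(TPM + 1) scale. Sustanon-treated boars differed from control boars by -0.58 ± 0.64 for THEM5, -0.08 ± 0.55 for MAPK4 and 2.16 ± 0.88 for GLYATL2. Leaving out control boar 27 gave -0.78 for THEM5 and -0.41 for MAPK4, and leaving out control boar 25 gave -0.32 and 0.37. Both Sustanon boars were below both controls for THEM5 and above both for GLYATL2, as were 25.7% and 24.4% of all tested genes in 2 against 2 pigs; edgeR called 0 genes here, with 931 at an unadjusted p under 0.05, where DESeq2 called 38 and limma 10. Within Sustanon, uncastrated boars and pigs without testes differed by 0.54 ± 0.51, 0.61 ± 0.44 and 0.02 ± 0.65 for THEM5, MAPK4 and GLYATL2, and 0.114% of tested genes were called. Several of these comparisons share the same control pigs and are not independent of each other.

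**Figure D2:**
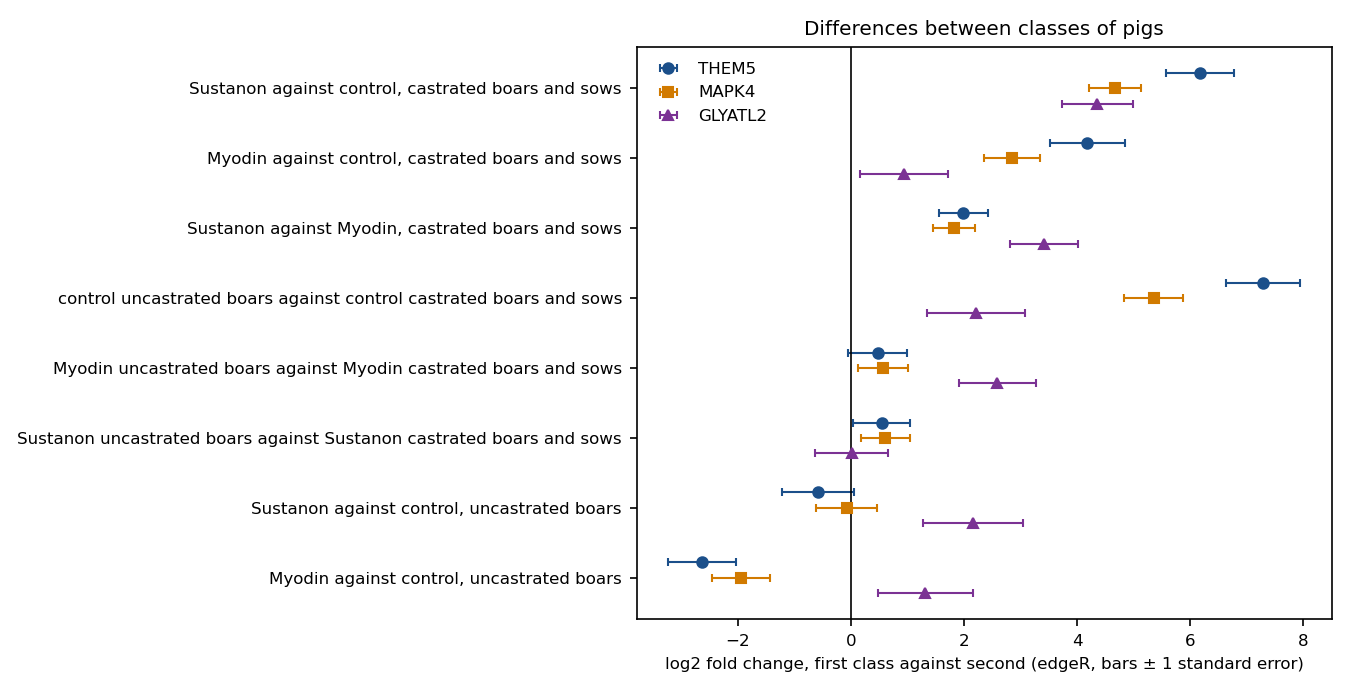
Log2 fold change of THEM5 (circles), MAPK4 (squares) and GLYATL2 (triangles) in 8 comparisons between classes of pigs, from 1 edgeR fit of all 24 libraries, with bars of 1 standard error on each side. GLYATL2 lies to the left of the other 2 genes in control uncastrated boars against other controls (2.21 against 7.29 and 5.35) and in Myodin against control pigs without testes (0.94 against 4.18 and 2.85), and to the right in Myodin uncastrated boars against other Myodin pigs (2.59) and in treated against control uncastrated boars (2.16 and 1.32, where THEM5 and MAPK4 are below 0); differences between genes were not tested.

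Within a treatment, the 3 genes were compared pig by pig. Over the 8 Sustanon pigs, whose levels had been used to choose the genes, r is a description. Pearson's r was 0.49 for THEM5 and MAPK4, -0.19 for THEM5 and GLYATL2 and 0.15 for MAPK4 and GLYATL2. Without the 2 pigs farthest from the median of the gene named first, these became 0.22, -0.87 and -0.21, so that they rest on few pigs. Over the 8 Myodin pigs THEM5 and MAPK4 had r of 0.31 (exact permutation p = 0.417, adjusted over 3 relations 0.417) and Spearman's rho of 0.17 (exact p = 0.703, adjusted 0.793). THEM5 and GLYATL2 had r of 0.49 (exact permutation p = 0.214, adjusted 0.357) and rho of 0.29 (exact p = 0.501, adjusted 0.793). MAPK4 and GLYATL2 had r of 0.51 (exact permutation p = 0.238, adjusted 0.357) and rho of 0.12 (exact p = 0.793, adjusted 0.793). Without the 2 farthest pigs r was 0.07, 0.50 and 0.22 in the same order, and none of the 3 relations passed. These relations pool castrated boars, sows and uncastrated boars, and no group within a treatment had enough pigs to repeat them.

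The genes most like each of the 3 were ranked by Pearson's r of log2 CPM over all 24 libraries among 7582 tested genes with a symbol, as a description; the points share treatment classes. MAPK4 was the nearest to THEM5, and THEM5 to MAPK4 (r = 0.93). TERF2, which encodes a protein that binds telomere repeats, was next for both (0.93 with THEM5, 0.88 with MAPK4). The palmitoyltransferase gene ZDHHC14 (0.90 and 0.85) and the peroxisomal import receptor gene PEX5 (0.86 with each) were on both lists. DHRS4, which encodes a carbonyl reductase, completed the list of THEM5 (0.85), and DIO1, which encodes a thyroid hormone deiodinase, that of MAPK4 (0.86).

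TERF2 rested at 51.1 ± 4.08 CPM (SD, n = 6) in control pigs without testes, against 119 ± 7.07 CPM (n = 2) in control uncastrated boars. It reached 122 ± 30.0 CPM (n = 6) with Sustanon and 85.0 ± 14.9 CPM (n = 5) with Myodin in pigs without testes. DIO1 had 44.9 ± 12.5 CPM, 173 ± 32.8 CPM, 207 ± 54.3 CPM and 127 ± 58.2 CPM in the same 4 classes. Over the 8 Myodin pigs alone, which also entered the ranking, r with THEM5 was 0.83 for TERF2, 0.47 for DHRS4, 0.46 for ZDHHC14, 0.31 for MAPK4 and 0.24 for PEX5. With MAPK4 it was 0.49 for DIO1, 0.45 for PEX5, 0.21 for TERF2 and 0.11 for ZDHHC14.

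GLYATL2 had a wholly separate list. It held TET3, which encodes an enzyme that oxidises methylated cytosine, CROT, which encodes the carnitine acyltransferase of peroxisomes, AHR, which encodes the receptor for dioxin-like compounds, C12orf29, and the mismatch repair gene MLH3, with r between 0.92 and 0.93. Over the 8 Myodin pigs alone r was 0.81 for TET3, 0.89 for CROT, 0.83 for AHR, 0.89 for C12orf29 and 0.87 for MLH3. These 8 pigs also entered the ranking, so high r among them is partly built in, and it was not recomputed without the farthest pigs. CROT, which like GLYATL2 acts on acyl-CoA, had 247 ± 79.6 CPM (SD, n = 6) in control and 888 ± 457 CPM (n = 6) in Sustanon pigs without testes, and 238 ± 91.1 CPM (n = 5) in Myodin pigs without testes against 848 ± 676 CPM (n = 3) in Myodin uncastrated boars. Among Myodin uncastrated boars, CROT was highest in boar 23 at 1576 CPM and lowest in boar 22 at 241 CPM, the same order as GLYATL2.

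**Figure D3:**
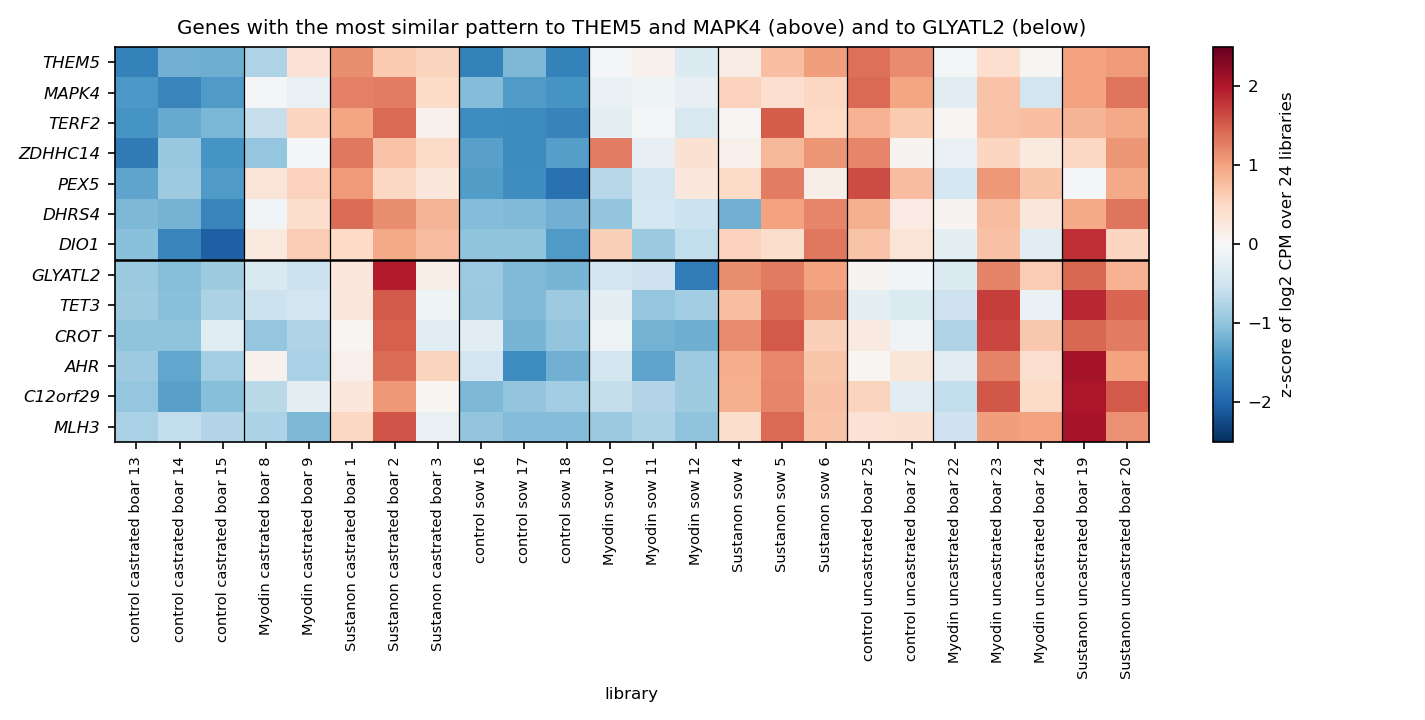
Z-score of log2 CPM over 24 libraries (colour, red above and blue below the mean of the gene) for THEM5, MAPK4 and the genes most like them (upper block) and for GLYATL2 and the genes most like it (lower block), with libraries as columns grouped by treatment and sex. The upper block is red in control uncastrated boars 25 and 27, where the lower block is near its mean, and the lower block is red in Myodin uncastrated boar 23.

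Relatives and pathway partners of the 3 genes were taken from 6 lists compiled by function. Of 12 other acyl-CoA thioesterases of the THEM and ACOT families 8 were tested. In Myodin uncastrated boars against Myodin pigs without testes 2 of 8 were called higher, against 0.914% of all tested genes, and none lower, with a median log2 fold change of -0.11 against 0.00 over all genes. ACOT12, which encodes a cytosolic acetyl-CoA hydrolase, rose by 1.58 ± 0.40 (adjusted p = 0.0385, edgeR), with 2 of 3 boars above all 5 other pigs. ACOT13, which encodes a mitochondrial long-chain thioesterase, had 1.34 ± 0.32 (adjusted p = 0.0301, edgeR), with boars 23 and 24 above all 5 other pigs, at 735 and 660 CPM, and boar 22 below all of them, at 177 CPM. Both calls were lost without boar 23 (0.90 with adjusted p of 0.323 for ACOT12 and 1.01 with 0.199 for ACOT13, edgeR), without boar 24 or without sow 10, 11 or 12, the ACOT12 call also without castrated boar 9, and both with the 2 classes alone (adjusted p of 0.225 and 0.193, edgeR). ACOT12 also rose with Sustanon against control in pigs without testes, by 1.77 ± 0.33 (adjusted p = 0.00268 by edgeR, 6 of 6 pigs above all controls; 1.80 with 0.0502 without the 3 doubtful control libraries). THEM6, the nearest relative of THEM5 in the table, was not called and differed by -0.01 ± 0.49 between the Myodin classes and by -0.09 ± 0.39 between Sustanon and control pigs without testes. In Sustanon uncastrated boars THEM6 had -3.04 ± 0.77 against control uncastrated boars, both being below both controls as were 25.7% of all genes, and -2.20 ± 0.69 against Sustanon pigs without testes, neither of them called. THEM4 was not analysed here.

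PTPMT1, which encodes the mitochondrial phosphatase that makes the precursor of cardiolipin, was the only gene called of 9 tested for cardiolipin synthesis and remodelling, the process in which THEM5 takes part; over all genes 0.0343% were called with Myodin against control and 0.423% as higher in control uncastrated boars. It rose with Myodin in pigs without testes, from 21.0 ± 1.60 CPM (SD, n = 6) to 44.4 ± 6.40 CPM (n = 5), by 1.08 ± 0.17 (adjusted p = 0.0072, edgeR; 5 of 5 above all controls). Without the 3 doubtful control libraries it had 1.07 with an adjusted p of 0.380 by edgeR, and the call was lost. In control uncastrated boars it had 52.8 ± 12.7 CPM (n = 2) and was higher than in other controls by 1.33 ± 0.22 (adjusted p = 0.00356, edgeR), a call lost without control uncastrated boar 25 (1.06, adjusted p of 0.146). With Sustanon in pigs without testes it differed by 0.83 ± 0.17 (adjusted p = 0.00424, edgeR), under the fold threshold. In Myodin uncastrated boars it was not called, with -0.49 ± 0.21 against Myodin pigs without testes and -0.74 ± 0.25 against control uncastrated boars, 3 of 3 being below both, as for 9.76% of all genes. The list as a whole had a median log2 fold change of 0.17 with Myodin, against 0.01 over all genes.

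Around MAPK4, 4 of 8 listed genes of atypical MAP kinase signalling were tested, and 1 was called in 1 comparison, Sustanon against control in pigs without testes, where 1.36% of all genes were called higher. DUSP2, which encodes a phosphatase of MAP kinases, rose with Sustanon in pigs without testes by 2.25 ± 0.57 (adjusted p = 0.0205 by edgeR, 6 of 6 pigs above all controls). That call was lost without the 3 doubtful control libraries (2.27, adjusted p of 0.169), without Sustanon sow 5 (1.81, 0.0707) and without control castrated boar 14 (2.13, 0.0509). MAPK6, the close relative, differed by 0.37 ± 0.21 in the same comparison and by -0.02 ± 0.26 between the Myodin classes, and was not called. None of 6 conventional MAP kinases tested of 10 listed was called in any of 5 comparisons, in which 0.0343% to 2.02% of all genes were called, with list medians between -0.15 and 0.08. GLYATL3 and the 3 other genes tested of 10 listed for conjugation of acyl-CoA with amino acids were not called either; GLYATL3 differed by 0.67 ± 1.17 between the Myodin classes. GLYAT and GLYATL1 were not analysed here. How reads shared by similar genes were assigned is not given in the sources used here, which leaves values of GLYATL2 uncertain where family members are alike.

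Of 13 listed genes of the androgen receptor and its partners 7 were tested and 1 was called, in 3 comparisons in which 0.914%, 1.36% and 0.685% of all genes were called higher. FKBP5, which encodes a chaperone partner of steroid receptors and is a known target of them, rose in Myodin uncastrated boars against Myodin pigs without testes by 1.85 ± 0.36 (adjusted p = 0.0141 by edgeR, 3 of 3 above all others). That call was lost without boar 23 (1.66, adjusted p of 0.101) and with the 2 classes alone (1.85, 0.168). The Myodin pigs without testes had less FKBP5 than control pigs without testes, 97.4 ± 50.3 CPM (SD, n = 5) against 189 ± 71.2 CPM (n = 6), a log2 fold change of -0.96 ± 0.31 that was not called, with 4 of 5 below all controls. FKBP5 also rose with Sustanon against control in pigs without testes, by 1.09 ± 0.30 (adjusted p = 0.0328, edgeR). That call was lost without the 3 doubtful control libraries (1.23, adjusted p of 0.106) and without any of 7 single pigs, Sustanon castrated boar 2, Sustanon sows 5 and 6, control castrated boars 13 and 15 and control sows 17 and 18, with values of 0.97 to 1.10. Between Sustanon and Myodin in pigs without testes, at their different doses, FKBP5 had 2.05 (adjusted p = 0.00346, edgeR). The list median in the Myodin comparison was 0.02.

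The surroundings of MAPK4 and GLYATL2 were also examined. Within 100 kb, RefSeq places 2 other genes around MAPK4, of which 0 were tested, and 7 around GLYATL2, of which 3 were tested (DTX4, FAM111A and FAM111B). None of these 3 tested neighbours was called in any of 5 comparisons, a count to be read against the 0.0343% to 2.02% of all genes called. The closest was FAM111A, at 1.15 with an adjusted p of 0.0502 by edgeR in Myodin uncastrated boars against Myodin pigs without testes. FAM111B, which ends 707 bases from GLYATL2, had 0.64 with an adjusted p of 0.107 by edgeR in the same comparison.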

How the data were processed

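Liver RNA of 24 pigs was sequenced as stranded poly-A libraries. The authors trimmed reads with Skewer, aligned them with STAR 2.5 to Sscrofa11.1 in docker4seq, and deposited unnormalized read counts per gene and, for the same libraries, log2(TPM + 1) values with a pseudocount of 1. The counting tool is not given in the sources used here.

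The main test was the quasi-likelihood test of edgeR 4.0.16 under R 4.3.3. Castrated boars and sows were pooled within each treatment (6 classes, 18 residual degrees of freedom), genes were kept by filterByExpr, counts were scaled by TMM, and 1 quasi-likelihood fit gave every comparison, two-sided, with Benjamini-Hochberg adjustment. The study used DESeq2, run here (1.42.0) as an alternative with limma 3.58.1 on the deposited log2 values. Log2 CPM used a prior count of 2, and TPM was the deposited value converted back. Exact permutation tests of class differences and exact intervals of pooled ratios were run in R. Exact tests of r and rho were run in Python, with scipy 1.17.1 for ranks and adjustment. Tests were tried on simulated data. Y-linked reads were held against the labelled sex at a threshold of 10.

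The 3 genes and the gene lists were chosen with earlier results of these data known. Genes named are these 3, for each the 5 genes of highest r, list members called, nearest family relatives, and EIF1AY; KDM5D and the neighbouring genes were added afterwards. Groups follow the labels. Each library is 1 pig, so p-values measure the spread between pigs. PCR data were not used.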

Additional observations from a re-analysis of the deposited data

Results flagged for a closer look

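In the 9 combinations of gene and class with 5 or 6 pigs, 2 single libraries stood apart by Dixon's 95% criterion, which chance alone passes in about 1 of 20 groups. MAPK4 in control pigs without testes was 0.404 CPM in control sow 16, from 4 reads, the highest of 6; this is a library whose Y-linked reads go against its label. GLYATL2 in Myodin pigs without testes was 0 CPM in Myodin sow 12, the lowest of 5.

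The effect of treatment pointed in opposite directions in pigs without and with testes in 3 cases, in every treated pig; these differences were not tested. THEM5 with Sustanon had a log2 fold change against control of 6.17 in castrated boars and sows and of -0.58 ± 0.64 (SE) in uncastrated boars, where the 95% interval of -1.90 to 0.75 includes 0. THEM5 with Myodin had 4.18 and -2.63. MAPK4 with Myodin had 2.85 and -1.94. In uncastrated boars 25.7% of all genes were lower without overlap with Sustanon and 9.76% with Myodin. The control levels that choose these genes, low without testes and high with them, enter each of these values.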

How the results depend on the processing

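The 110 genes called between the Myodin classes became 198 by DESeq2, 68 with 9 separate groups, 41 by limma, 73 without the 3 control libraries against their labels and 0 with only the 2 classes (1145 at an unadjusted p under 0.05), where GLYATL2 did not pass the count filter; leaving out each pig gave 1 (without Myodin uncastrated boar 23) to 434 (without boar 22). GLYATL2 in that comparison lost its call with no filter (2.58, adjusted p 0.0515), 9 groups (2.58, 0.0709), limma (1.49, 0.0864) and without the 3 libraries (2.59, 0.0719), and kept it with RLE and DESeq2 (adjusted p 0.0476 and 0.00825); leaving out each pig gave 1.76 to 3.06 with adjusted p of 0.00702 to 0.304 by edgeR, and kept the call in 4 of 24 cases. THEM5 ranged from 0.04 to 0.89 and MAPK4 from -0.43 to 0.91, MAPK4 turning negative without boar 23 (-0.43 by edgeR, -0.40 by exact permutation). Ranges of the permutation differences were 0.27 to 0.92, -0.40 to 0.62 and 1.46 to 2.78 for THEM5, MAPK4 and GLYATL2.

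Genes called with Sustanon in pigs without testes went from 177 to 73 without the 3 libraries (129 to 211 leaving out each pig). Those of control uncastrated boars went from 72 to 134 by DESeq2, 111 with 2 classes and 25 without the 3 libraries (6, without control uncastrated boar 27, to 90). Those of Myodin against control went from 3 to 25, 9 and 0 in the same order (2 to 8), and those of Sustanon against Myodin from 91 to 151 by DESeq2 and 60 by limma (39, without Myodin sow 11, to 165, without Sustanon castrated boar 3). With 2 classes alone, THEM5 and GLYATL2 did not pass the filter in Myodin against control. The lowest folds over alternatives other than leaving out 1 pig came from limma on log2(TPM + 1). The added 1 shrinks differences between low levels on that scale. With Sustanon against control in pigs without testes, log2 values there were 4.07 for THEM5, 1.39 for MAPK4 and 2.33 for GLYATL2. Control uncastrated boars against other controls gave 5.46, 2.05 and 1.14 at the lowest, in the same order. Alternatives for the named list genes, given beside them, were chosen after seeing the data. The causes of the changes in called genes were not tested. No paired analysis was possible because the replicate numbers are animal numbers that no groups share. Control levels of 0 to 4 reads limit every fold against control pigs without testes.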
